A study of Homo sapiens with 18 samples.

Results

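The kinases that switch on NF-κB, together with the adaptors that hold them in complexes, were followed in 3 chronic lymphocytic leukemia (CLL) cell lines before and after stimulation of Toll-like receptor 9 (TLR9). The group was chosen by gene symbol and holds 9 genes (CHUK, IKBKB, IKBKG, IKBKE, TBK1, MAP3K7, MAP3K8, MAP3K14 and TAB2) of the 56609 gene symbols in the count table. All 9 had at least 10 counts summed over the libraries, as did 31872 symbols in all, which were the genes tested. All 3 lines (HG3, MEC2, PCL12) carry Epstein-Barr virus, and IGHV is mutated in MEC2 but not in HG3 or PCL12. Cells were treated with CpG-ODN2006, an oligonucleotide that activates TLR9, at 2.5 μg/ml for 4 h, and untreated cells of the same line served as controls. Each line gave 3 stimulated and 3 unstimulated libraries, 18 in all, and each line stands for a single cell line, so that IGHV status and line cannot be told apart. The labels do not say whether replicates came from separate cultures, and p values therefore measure only the spread between these libraries.

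In resting cells NF-κB dimers are held in the cytoplasm by IκB proteins. TLR9 signals through MyD88 and IRAK kinases to TRAF6, whose ubiquitin chains recruit the TAK1 kinase (MAP3K7) through its adaptor TAB2. TAK1 phosphorylates the IKK complex, made of the kinases IKKα (CHUK) and IKKβ (IKBKB) and the scaffold NEMO (IKBKG), and IKK then marks IκB for degradation. IKK also releases TPL2 (MAP3K8) from p105, the product of NFKB1, and TPL2 starts the ERK cascade. In the alternative pathway NIK (MAP3K14) activates CHUK, which leads to processing of p100, the product of NFKB2. TBK1 and IKKε (IKBKE) are IKK-related kinases best known for phosphorylating interferon regulatory factors. All of these proteins are regulated largely by phosphorylation, ubiquitin and protein turnover, none of which was measured here.

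Levels are given in CPM, the counts of a gene relative to the total of its library after scaling with TMM factors, and differences as log2 fold change (Log2FC) of edgeR's quasi-likelihood fit with its standard error (SE). Library totals lay between 20382943 and 67308932 counts. Mitochondrial genes took 20.2% of the counts in HG3 unstimulated replicate 2 and 19.7% in MEC2 CpG replicate 2, against 2.82% to 9.28% in the other 16 libraries. PCL12 replicates 2 and 3, stimulated and unstimulated, had transcripts typical of MEC2: the median level of 45 genes, chosen as expressed in MEC2 but scarce in PCL12 replicate 1, was 29.0% to 31.3% of that in MEC2, against 6.61% to 14.2% in HG3 and 2.26% to 2.36% in PCL12 replicate 1, where the choice of genes fixes a low level. Calls of the 9 genes by edgeR that rest on these libraries are given without them too. All 6 B cell markers checked had counts in every group, whereas the 5 myeloid markers summed to at most 3.86 CPM. The 6 T and NK cell markers summed to 39.8 to 143 CPM, nearly all of it from TRAC (35.7 to 140 CPM), while the defining CD3D, CD3E and CD3G reached at most 2.37 CPM, NKG7 3.35 CPM and GNLY 6.99 CPM. TLR9 itself, named after its values were seen, was counted 0 times in 11 libraries and at most 10 times in the others, so that its change could not be measured. As a marker of the response, NFKBIZ, which encodes IκBζ, had a Log2FC of 0.66 in HG3, 2.20 in MEC2 and 1.71 in PCL12 (edgeR adjusted p = 1.00, 0.0154 and 0.541), and ZC3H12A, an endoribonuclease gene that the study also names, had 0.61, 1.82 and 1.43 (edgeR adjusted p = 1.00, 0.0587 and 1.00). The NFKBIZ call in MEC2 is not firm: 0 genes were called there by edgeR without MEC2 CpG replicate 2, which is mitochondria-rich, without CpG replicate 1 or unstimulated replicate 2 or 3, with filterByExpr, or by limma-voom. In MEC2, 1 gene was called with RLE scaling or library totals, and 3 with DESeq2 or without CpG replicate 3. NFKBIZ was higher after CpG in 9 of 9 replicate pairs, with log2 ratios of 1.97, 2.73 and 1.83 in MEC2. The paper reports its induction in MEC2 by real-time PCR too.

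After CpG, most of the kinase genes stayed within the spread of the replicates, and MAP3K8 and IKBKE had the largest Log2FC averaged over the lines. MAP3K8 was higher after CpG in 9 of 9 replicate pairs, by 1.31-fold in HG3, 1.98-fold in MEC2 and 1.68-fold in PCL12, and IKBKE was higher in the 3 MEC2 pairs, by 1.82-fold. In the fit of the 6 groups, 0 of the 9 genes passed an adjusted p of 0.05 in HG3, in MEC2 or in PCL12, against 0.00314%, 0.00314% and 0% of all genes tested, and DESeq2 and limma-voom on the same groups also called 0 of 9 in each line. At an unadjusted P under 0.05, edgeR found 0 of 9 in HG3 (3.73% of all genes), 2 of 9 in MEC2 (2.46%) and 1 of 9 in PCL12 (2.09%), all of them higher, and 2 of 9 averaged over the lines (4.04%). The description of the series places 1 stimulated and 1 unstimulated sample in each replicate series. With the replicate number of each line as a block, edgeR called MAP3K8 and IKBKE in MEC2, 2 of 9 genes against 0.333% of all genes, and 0 of 9 in HG3 (0.135%) and PCL12 (0.0471%), where the counts at an unadjusted P under 0.05 were 2 (3.59% of all genes) and 1 (1.69%). limma-voom with the same block called 0 of 9 in each line. In MEC2 the pairing of replicates 1 and 2 is not borne out by the libraries, since the stimulated ones correlated best with each other's unstimulated library (0.449 and 0.388, against 0.189 and -0.0133 for their own). Simulated data were drawn without differences between replicate pairs. On them, edgeR with the block made more calls in a line without changed genes than the 6-group fit or limma-voom with the block. DESeq2 made the most. The DESeq2 calls given below and the block calls here and in the pathway lists may thus be less firm than their adjusted p. Whether the same holds where pairs differ was not tested. In bulk RNA, fewer cells that carry a transcript and less of it per cell cannot be told apart.

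**Figure D1:**
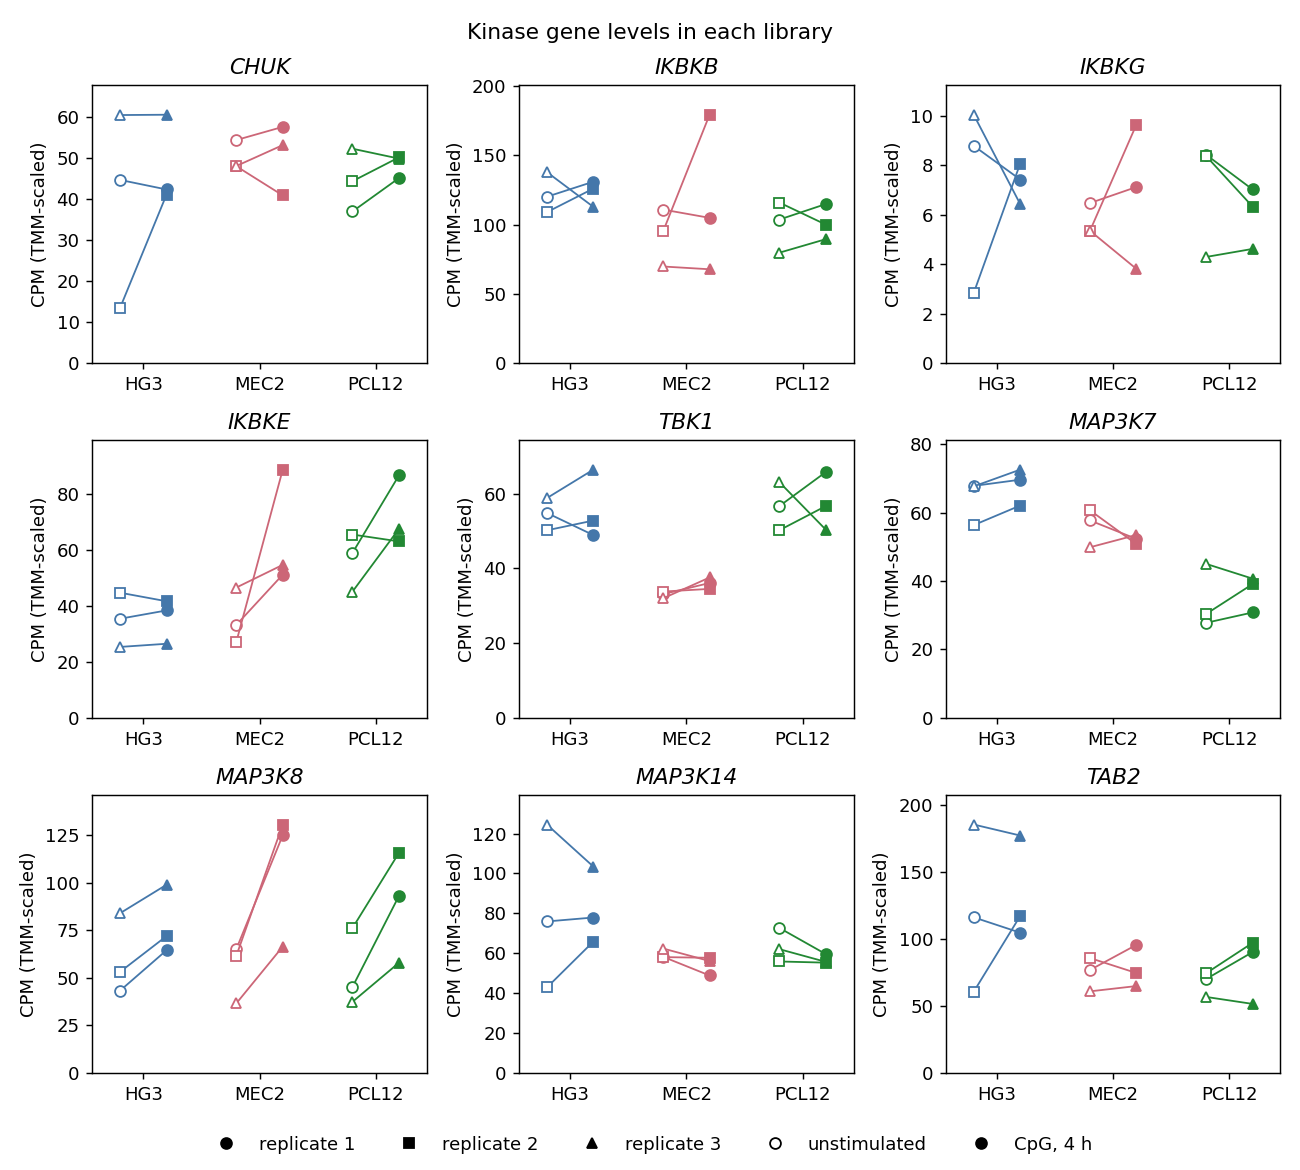
TMM-scaled CPM of the 9 genes in each of the 18 libraries, with 1 panel per gene and its own vertical axis starting at 0. Open symbols are unstimulated and filled symbols CpG-stimulated libraries, lines join libraries of the same replicate number, and the MAP3K8 lines slope upward in all 9 pairs, while the lines of most other genes cross.

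MAP3K8 (chromosome 10, 30434021 to 30461833, plus strand, GRCh38) encodes TPL2, the kinase that couples IKK to ERK. In unstimulated MEC2 cells it stood at 65.0, 61.4 and 36.5 CPM in replicates 1, 2 and 3, and after CpG at 125, 131 and 66.4 CPM. All 3 stimulated MEC2 libraries were thus above all 3 unstimulated ones, the lowest of them by a narrow margin. In PCL12 the unstimulated libraries held 45.1, 76.1 and 37.4 CPM and the stimulated ones 93.0, 116 and 57.9 CPM. HG3 went from 43.2, 53.1 and 83.9 CPM to 64.5, 71.9 and 98.9 CPM. The groups overlapped in PCL12 and in HG3, while every stimulated library was above the unstimulated library of its own number.

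The log2 ratios within pairs were 0.94, 1.09 and 0.86 in MEC2, 1.04, 0.60 and 0.63 in PCL12 and 0.58, 0.44 and 0.24 in HG3, in the order of the replicates. MAP3K8 was the only 1 of the 9 genes that was higher in all 9 pairs, which held for 0.301% of all genes tested and for 0.784% of those with a mean of at least 10 CPM. In the 6-group fit the Log2FC of MAP3K8 was 0.98 (SE 0.33) in MEC2, 0.75 (SE 0.33) in PCL12 and 0.38 (SE 0.33) in HG3, each with an edgeR adjusted p of 1.00. The replicate block left these values nearly as they were and lowered their errors. In MEC2 the Log2FC with the block was 0.96 (SE 0.21, edgeR adjusted p = 0.00246), in PCL12 0.76 (SE 0.21, edgeR adjusted p = 0.203; 3.88e-06 with the same value and an SE of 0.13 when the HG3 and MEC2 pairs of replicate 2 were left out of the fit) and in HG3 0.42 (SE 0.21, edgeR adjusted p = 1.00), or 0.41 in HG3 without replicate 2. The MEC2 value had an adjusted p of 0.0644 in limma-voom with the block.

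Leaving out 1 pair at a time, the MEC2 value of MAP3K8 with the block was 0.90 without replicate 2, the pair with the mitochondria-rich library (edgeR adjusted p = 0.0258), 1.00 without replicate 3 (0.0432) and 0.97 without replicate 1, where the adjusted p was 0.0814. PCL12 replicate 1, the pair in which the MEC2-type transcripts were scarce, gave 1.05 alone. Averaged over the lines, MAP3K8 had a Log2FC of 0.71 (SE 0.19, edgeR adjusted p = 1.00), the 22nd smallest P of all genes, and 3 genes or 0.00941% were called. With the block the average was 0.71 (SE 0.12) with an edgeR adjusted p of 3.64e-06 and 0.0105 in limma-voom, against 0.555% of genes called by edgeR, and it stayed between 0.67 and 0.74 with an adjusted p of at most 0.00126 when any of the 9 pairs was left out. From PCL12 replicate 1 alone with the block, the average was 0.82 (edgeR adjusted p = 0.000868).

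The RefSeq promoter table (GRCh38.p14) held windows for 8 of the 9 genes, and the 250 bases before the start site of the pair of genes that the block called are shown to compare what lies there. Both strands were searched for GGAANTTCC, an NF-κB-type site that reads alike on both strands, and for GGANTTTCC, the inner letters of a commoner form of the site. A stretch of letters can match both motifs at once. Capitals mark the match in MAP3K8 to both motifs, on the plus strand from position -29 to -21 before the start, and the IKBKE window held no match.
MAP3K8, chr10:30433771-30434020, plus strand: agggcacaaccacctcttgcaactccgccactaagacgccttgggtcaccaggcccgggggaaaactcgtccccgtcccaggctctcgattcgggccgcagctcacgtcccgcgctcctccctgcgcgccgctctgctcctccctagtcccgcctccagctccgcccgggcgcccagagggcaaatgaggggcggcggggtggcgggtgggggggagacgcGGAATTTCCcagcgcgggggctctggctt
IKBKE, chr1:206470226-206470475, plus strand: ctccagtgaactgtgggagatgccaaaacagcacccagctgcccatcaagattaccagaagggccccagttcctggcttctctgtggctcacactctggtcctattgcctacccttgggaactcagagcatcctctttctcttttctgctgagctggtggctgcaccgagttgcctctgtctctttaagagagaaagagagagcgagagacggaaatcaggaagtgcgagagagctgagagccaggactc
Of the 8 genes, MAP3K8 was the only one with either motif in a window (1 site, which lies in 2 of its 3 overlapping or neighbouring windows), against 0.996% of all 27305 genes for GGAANTTCC and 1.79% for GGANTTTCC. The motifs were chosen after the windows had been read, so that these shares do not test the match. The MAP3K8 window overlaps an exon of another gene (ENSG00000289874) in GENCODE 44.

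IKBKE (chromosome 1, 206470476 to 206496889, plus strand) encodes IKKε. In MEC2 it went from 33.2, 27.1 and 46.6 CPM to 51.2, 88.7 and 54.7 CPM, and the groups did not overlap. The pair of replicate 2 had a log2 ratio of 1.71, against 0.62 and 0.23 in replicates 1 and 3, and its stimulated library was the one with 19.7% mitochondrial counts. The Log2FC was 0.86 (SE 0.28, edgeR adjusted p = 1.00) and with the block 0.85 (SE 0.22, edgeR adjusted p = 0.0317). This call rested on replicate 2: without that pair the Log2FC with the block was 0.43 (edgeR adjusted p = 1.00), and without replicate 1 it was 0.96 with an edgeR adjusted p of 0.133. Without replicate 3 it was 1.15, and the smallest edgeR adjusted p over the alternatives with the block was 0.0130. limma-voom with the block gave an adjusted p of 0.600.

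In PCL12, IKBKE was counted at 58.9, 65.5 and 45.1 CPM without and 86.6, 63.0 and 67.5 CPM with CpG, and in HG3 at 35.4, 44.7 and 25.4 CPM without and 38.4, 41.7 and 26.5 CPM with CpG. In HG3 the libraries of a pair stayed within 0.12 of each other on the log2 scale, and the Log2FC was 0.02 (SE 0.28) against 0.36 (SE 0.28) in PCL12, edgeR adjusted p = 1.00 in both. TBK1 (chromosome 12, 64452090 to 64502114, plus strand), the kinase most closely related to IKKε, held 33.1, 33.8 and 32.0 CPM in unstimulated and 36.1, 34.5 and 37.6 CPM in stimulated MEC2 cells. The MEC2 groups did not overlap, yet the fitted difference was small, with a Log2FC of 0.13 (95% confidence interval -0.32 to 0.58). In HG3 and PCL12 the Log2FC of TBK1 was 0.04 and 0.02 and the groups overlapped.

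MAP3K7 (TAK1, chromosome 6, 90513573 to 90587086, minus strand) and TAB2 (chromosome 6, 149218641 to 149411613, plus strand) are the kinase and the adaptor that connect TRAF6 to IKK. The Log2FC of MAP3K7 was 0.09 in HG3, -0.10 in MEC2 and 0.10 in PCL12, with 95% confidence intervals that together spanned -0.57 to 0.57. TAB2 gave 0.14, 0.07 and 0.25 with SE of 0.31 each. In HG3 the value of TAB2 was -0.16 without unstimulated replicate 2, a library that held 60.6 CPM against 116 and 185 CPM in the other unstimulated libraries and 105, 117 and 177 CPM after CpG.

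The members of the IKK complex itself showed no called change in any line. CHUK, the catalytic IKKα (chromosome 10, 100188300 to 100229596, minus strand), lay between 37.0 and 60.6 CPM in 17 libraries and at 13.5 CPM in HG3 unstimulated replicate 2, where mitochondrial genes took 20.2% of the counts. Its HG3 pairs had log2 ratios of -0.08, 1.61 and 0.00, and its Log2FC was 0.28 (SE 0.33), and 0.48 with the block (SE 0.22, edgeR adjusted p = 1.00). Without the pair of replicate 2 the value with the block was -0.04. IKBKB, the catalytic IKKβ, was at 111, 95.05 and 69.7 CPM in unstimulated MEC2 and at 105, 179 and 67.7 CPM after CpG. Only the mitochondria-rich library was high, and the Log2FC of IKBKB in MEC2 went from 0.35 (SE 0.28) to -0.08 without it. IKBKG, the NEMO scaffold (chromosome X, 154541199 to 154565046, plus strand), had the fewest counts, 2.84 to 10.1 CPM, and its value is uncertain because reads of the near-identical pseudogene IKBKGP1, which had at most 1 count in any library, cannot be separated from it with confidence.

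MAP3K14 (NIK, chromosome 17, 45263119 to 45317029, minus strand) is the upstream kinase of the alternative pathway. Unstimulated MEC2 libraries held 58.2, 58.1 and 62.4 CPM and stimulated ones 48.8, 57.7 and 56.1 CPM. The stimulated MEC2 libraries were all lower, and PCL12 was lower in 3 of 3 pairs as well, but the differences were within the error, with a Log2FC of -0.14 (SE 0.28) in MEC2 and -0.16 (SE 0.28) in PCL12, edgeR adjusted p = 1.00 in both. HG3 ranged from 42.8 to 125 CPM without CpG and from 65.9 to 103 CPM with it, again with its lowest value in unstimulated replicate 2. The antisense gene MAP3K14-AS1 overlaps MAP3K14 over 6706 bases and had 0.263 to 3.46 CPM, and the strand setting of the counting is not given in the sources used here.

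Taking the groups alone, 4 of the 9 genes did not overlap between stimulated and unstimulated MEC2 libraries (IKBKE, TBK1 and MAP3K8 above, MAP3K14 below), against 4.72% of all genes, and 0 of 9 in HG3 and in PCL12, against 3.72% and 4.55%. For each of the 4 the exact two-sided permutation test gave p = 0.1, the smallest value that 3 libraries against 3 allow. The shares of all genes include genes with few counts, and a share among genes at the level of the 9 was not computed here.

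**Figure D2:**
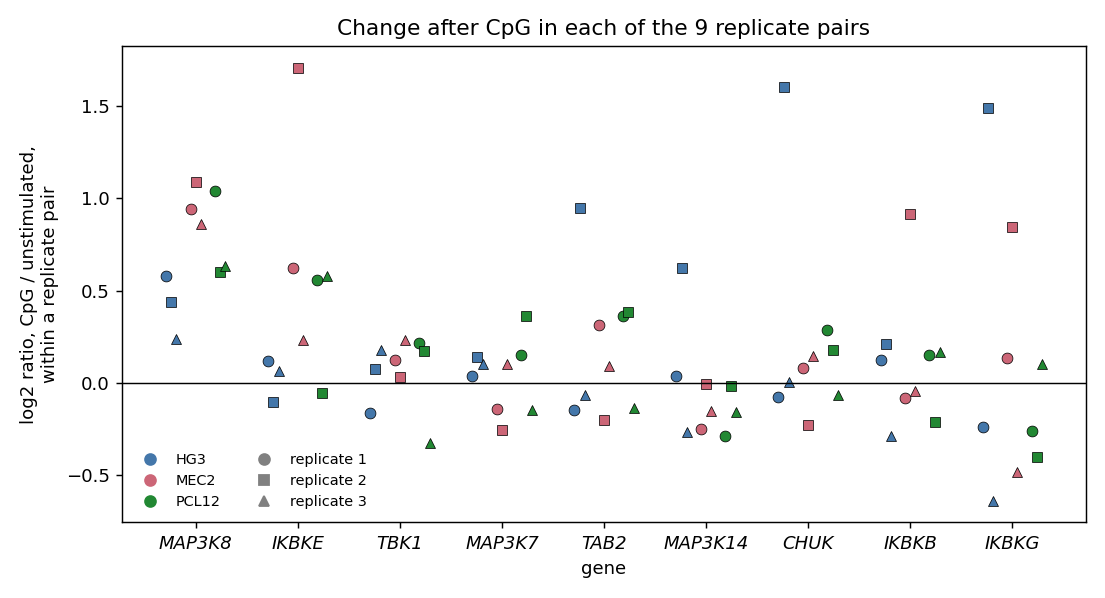
Log2 ratio of stimulated to unstimulated CPM within each of the 9 replicate pairs for each gene, coloured by line, with the symbol shape giving the replicate. MAP3K8 lies above 0 in all 9 pairs (0.24 to 1.09), whereas the highest points of CHUK, IKBKG, TAB2 and MAP3K14 are those of HG3 replicate 2.

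**Figure D3:**
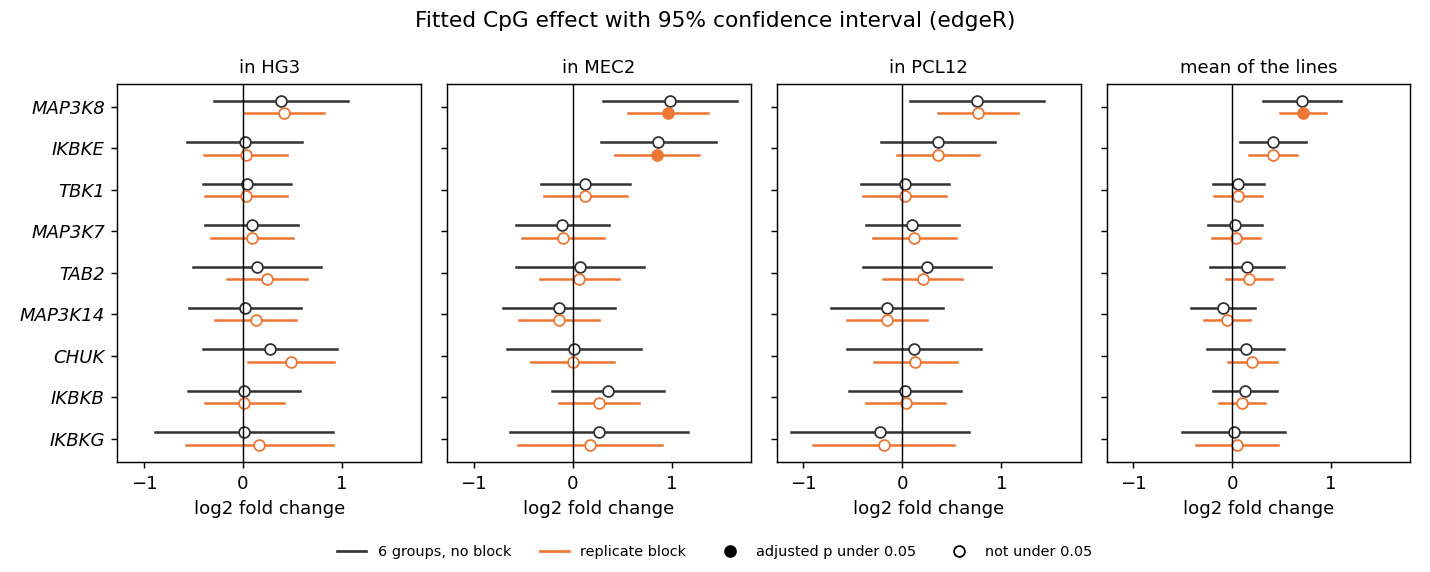
Log2FC after CpG with 95% confidence interval from edgeR in each line and averaged over the lines, for the fit of the 6 groups (dark) and the fit with the replicate block (orange), where filled points have an adjusted p under 0.05. The block narrows the intervals, and only MAP3K8 in MEC2 and averaged, and IKBKE in MEC2, have filled points.

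Whether the lines differed in their response was tested directly. The change of MAP3K8 differed by 0.60 on the log2 scale for MEC2 minus HG3 (SE 0.46, 95% confidence interval -0.35 to 1.55) and by 0.36 for PCL12 minus HG3 (SE 0.46), each with an edgeR adjusted p of 1.00. For IKBKE the difference between MEC2 and HG3 was 0.85 (SE 0.40, edgeR adjusted p = 1.00) and with the block 0.82 (SE 0.30, edgeR adjusted p = 0.747). None of the 9 genes was called for MEC2 minus HG3, PCL12 minus HG3 or MEC2 minus PCL12, against 0%, 0.00314% and 0% of all genes, and at an unadjusted P under 0.05 edgeR found 1 (IKBKE), 0 and 0 of the 9, against 4.1%, 4.16% and 3.23% of all genes. DESeq2, limma-voom and both block fits also called 0, where edgeR with the block called 0.141%, 0.069% and 0.0126% of all genes. The intervals remain wide enough to hold differences of 1 log2 unit for MAP3K8.

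Before stimulation 1 of the 9 genes was called in each comparison with HG3, TBK1 in MEC2 and MAP3K7 in PCL12, which is near the share of all genes called (9.78% and 9.44%). TBK1 was at 33.1, 33.8 and 32.0 CPM in MEC2 and at 54.8, 50.2 and 58.8 CPM in HG3, and was 0.604-fold as high in MEC2 (Log2FC -0.73, SE 0.22, edgeR adjusted p = 0.0311). PCL12 held 56.7, 50.2 and 63.1 CPM of TBK1, close to HG3 (Log2FC 0.05, 95% confidence interval -0.39 to 0.50) and above every MEC2 library. The difference between MEC2 and PCL12 was -0.78 (SE 0.22) with an edgeR adjusted p of 0.0620 (-0.81 and 0.378 from PCL12 replicate 1 alone), and 0 of 9 genes were called there against 2.05% of all genes, while 3 had an unadjusted P under 0.05 (11% of all genes). DESeq2 called TBK1 and MAP3K7 between MEC2 and PCL12 (adjusted p = 0.000966 and 0.0112), where it called 1411 of 20123 genes. There limma-voom called TBK1 (adjusted p = 0.0480) and 988 of 31872 genes in all. The direction of TBK1 in MEC2 against HG3 held in 14 of 14 alternatives, with values from -0.79 to -0.61, but its call was lost without any 1 of 5 of the 6 libraries compared (adjusted p up to 0.106).

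MAP3K7 was lowest in PCL12, with 27.8, 30.4 and 45.0 CPM against 67.8, 56.3 and 67.6 CPM in HG3 and 57.7, 60.7 and 49.9 CPM in MEC2. It was 0.538-fold as high in PCL12 as in HG3 (Log2FC -0.89, SE 0.23, edgeR adjusted p = 0.0112). With 1 library left out the value stayed between -1.12 and -0.77, and the call was lost without PCL12 unstimulated replicate 1 or 2 (edgeR adjusted p = 0.0697 and 0.0612). All PCL12 libraries were below all MEC2 libraries, and PCL12 replicate 1, in which MEC2-type transcripts were scarce, had the lowest level. From that replicate alone the Log2FC against HG3 was -1.18 (edgeR adjusted p = 0.0784). The part of the MEC2-type transcripts in the higher levels of replicates 2 and 3 was not tested.

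Other members differed between lines without passing the threshold. IKBKE was higher in PCL12 than in HG3 (Log2FC 0.68, SE 0.28, edgeR adjusted p = 0.147) and without overlap. TAB2 was at -0.85 in PCL12 (SE 0.32, edgeR adjusted p = 0.0988) and -0.70 in MEC2 (SE 0.32, edgeR adjusted p = 0.193) relative to HG3. These TAB2 values depended on HG3 unstimulated replicate 2, without which they were -1.14 and -0.997 (edgeR adjusted p = 0.00878 and 0.0238), and on unstimulated replicate 3, without which they were -0.40 and -0.25 (edgeR adjusted p = 0.480 and 0.683). Without HG3 unstimulated replicate 2, MAP3K14 was called in MEC2 against HG3 (-0.73, edgeR adjusted p = 0.0473). Without overlap between the unstimulated groups were 1 of 9 genes for MEC2 against HG3 (TBK1), 2 for PCL12 against HG3 (IKBKE and MAP3K7) and 2 for MEC2 against PCL12 (TBK1 and MAP3K7), where the shares of all genes were 22.2%, 21.1% and 17.3%. MAP3K8 did not pass between any pair of lines before stimulation, with Log2FC of -0.15 in MEC2 and -0.18 in PCL12 relative to HG3 and SE of 0.33.

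**Figure D4:**
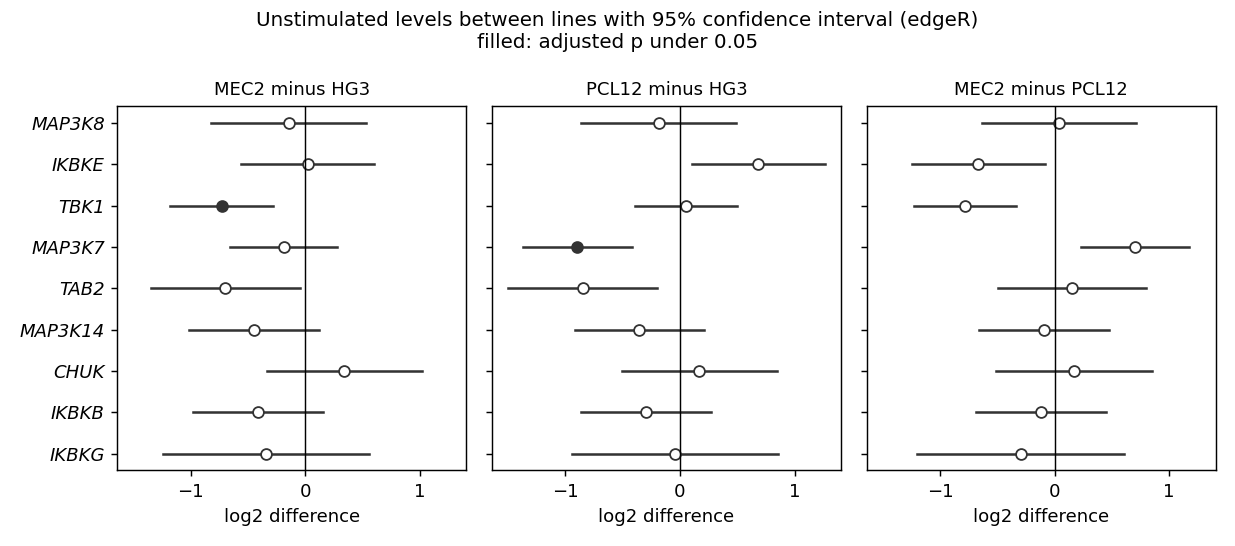
Log2 difference in unstimulated level between lines with 95% confidence interval from edgeR for the 9 genes, where filled points have an adjusted p under 0.05. TBK1 is lower in MEC2 than in HG3 (-0.73) and MAP3K7 lower in PCL12 than in HG3 (-0.89).

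The other genes of the pathway were taken from 6 lists of 43 genes, all of which passed the count filter. The lists were chosen with earlier results of these data known. Their counts beside the shares of all genes, here and below, are thus a description and not a test. The 6-group fit called 0 of 43 in HG3, MEC2 and PCL12 with edgeR, and 0, 7 and 0 of them had an unadjusted P under 0.05 and were higher (1.58%, 1.51% and 1.37% of all genes). With the block, edgeR called 4 of 43 in MEC2, all higher (0.295% of all genes), and 0 in HG3 and in PCL12. Of those 4, 3 belong to the alternative pathway: NFKB2, which encodes p100 (Log2FC 1.01, SE 0.21, edgeR adjusted p = 0.00218), CD40, a receptor that triggers it (0.88, SE 0.21, 0.0103), and RELB, the partner of processed p100 (0.84, SE 0.21, 0.0180). The other was REL, a released NF-κB subunit (0.87, SE 0.21, edgeR adjusted p = 0.0112). Without MEC2 replicate 2, the pair with the mitochondria-rich library, edgeR with the block called RELB (0.87), and NFKB2, CD40 and REL had 0.72, 0.76 and 0.66 (edgeR adjusted p = 0.140, 0.0965 and 0.388). Without replicate 1 it called 0 of 43, and limma-voom with the block called 0 of 43 in MEC2. Without the HG3 and MEC2 pairs that hold a mitochondria-rich library, the block fit called more. It called 7 of 43 in MEC2, all higher, where 177 of 30605 genes were called. In PCL12 it called 8 of 43, where 187 of 30605 were called. Of these 8, 7 were higher and TNFRSF13C (the BAFF receptor, named after its values were seen) was lower. With all libraries the block fit called 106 and 15 of 31872 genes in MEC2 and PCL12. The median Log2FC with the block over the 8 genes of the alternative pathway list was 0.67 in MEC2, 0.41 in PCL12 and 0.02 in HG3, while the median over the 9 kinase genes was 0.13 in MEC2, 0.12 in PCL12 and 0.13 in HG3.

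Averaged over the lines, the block fit without the pairs that hold a mitochondria-rich library called 11 of 43, 10 of them higher. It called 414 of 30605 genes in all. With the block and all libraries, 7 of 43 were called, all higher, against 0.417% of all genes. They were BIRC3 and TNFAIP3, which encode the ubiquitin ligase cIAP2 and the deubiquitinase A20 (Log2FC 0.48 and 0.48), CD40 (0.51), NFKB1 (0.46), NFKB2 (0.47), REL (0.59) and RELB (0.54). Their edgeR adjusted p values ran from 0.000718 for REL to 0.0298 for NFKB1. The 6-group fit called 0 of 43 averaged over the lines, limma-voom with the block called 2 (CD40 and RELB), and edgeR with the block called 1 with PCL12 from replicate 1 alone (REL). With 1 pair left out the block fit called 2 to 8 of 43, 2 of them without PCL12 replicate 1 (REL and RELB) or PCL12 replicate 2 (CD40 and RELB), 3 without MEC2 replicate 1 (BIRC3, CD40 and REL), and 4 without HG3 replicate 1 (BIRC3, NFKB1, REL and RELB) or PCL12 replicate 3 (BIRC3, CD40, REL and RELB). Without HG3 replicate 2, which holds the other mitochondria-rich library, NFKB1 was at 0.28 (edgeR adjusted p = 0.321). In the same fit MAP3K8 had 0.71, and IKBKE had 0.41 with an edgeR adjusted p of 0.113. In the pairs, 4 of 43 listed genes were higher in 9 of 9, which is 9.30%, against the 0.301% of all genes and 0.784% of those with a mean of at least 10 CPM given above. These include BIRC3, whose lowest pair ratio was 0.00053 on the log2 scale. Of the adaptors and enzymes between TLR9 and TAK1, 0 of 11 were called in any line, as were 0 of 7 of the linear ubiquitin and deubiquitinase list, 0 of 6 partners of TBK1 and IKKε and 0 of 6 partners of TPL2 and ERK kinases, by edgeR with or without the block in all libraries. Leaving out the mitochondria-rich pairs, the block fit called TNFAIP3 in MEC2 and PCL12 and NFKB1 in MEC2, and NFKB1 was also called in HG3 without HG3 replicate 3. The smallest P values below these calls included TRAF3, which holds NIK in check (MEC2 0.56, SE 0.21, edgeR adjusted p = 0.626 with the block), and in HG3 IRF7, a target of TBK1 and IKKε (-0.49, SE 0.21, edgeR adjusted p = 1.00 with the block). TRAF3 was higher in 9 of 9 pairs. The block fit without the mitochondria-rich pairs called it in PCL12 and averaged over the lines. TBKBP1, an adaptor of TBK1, had -0.68 in PCL12, and UNC93B1, which carries TLR9 to endosomes, and SHARPIN, a subunit of the linear ubiquitin ligase, had -0.39 and -0.42 in HG3 in the 6-group fit, edgeR adjusted p = 1.00 for each. From PCL12 replicate 1 alone TBKBP1 was at 0.031, and without the mitochondria-rich libraries SHARPIN was at 0.038, UNC93B1 at -0.26 and IRF7 at -0.18 in HG3.

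**Figure D5:**
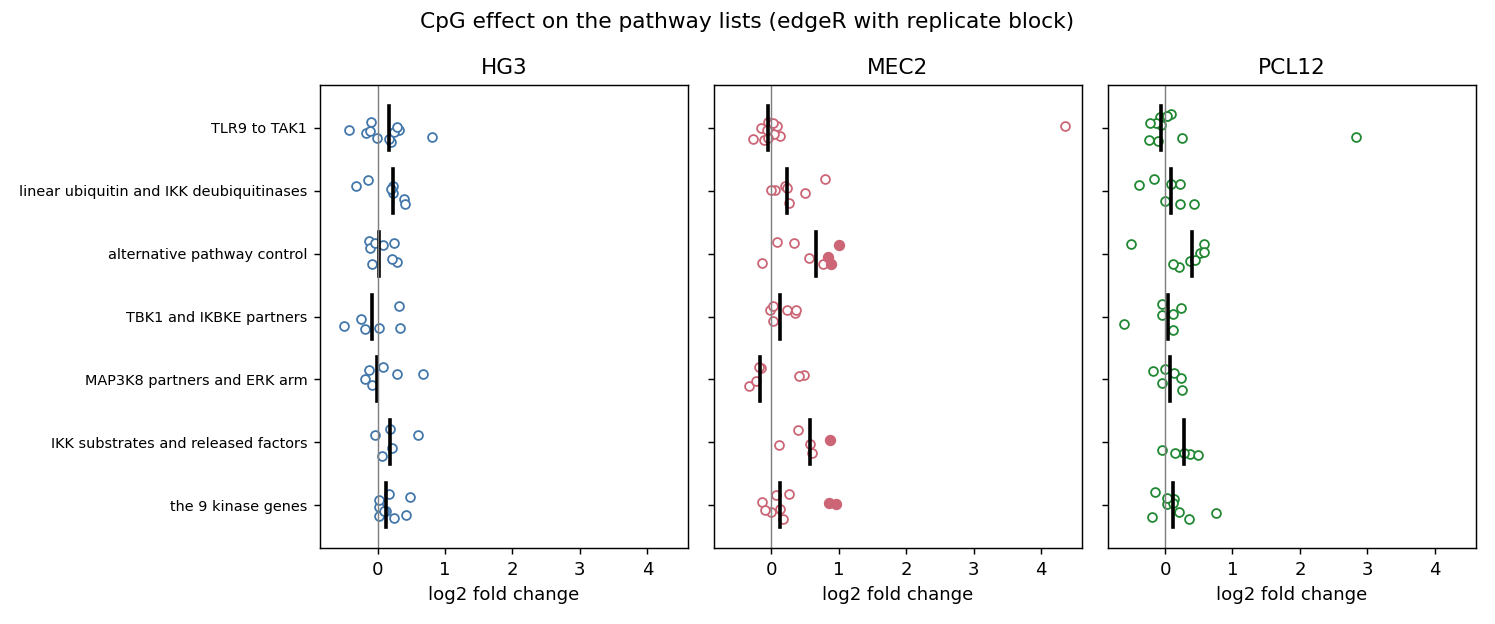
Log2FC after CpG from edgeR with the replicate block for each of the 43 listed pathway genes and the 9 kinase genes, by list and line, where filled points have an adjusted p under 0.05 and black bars are list medians. In MEC2 the medians of the alternative pathway list and of the IKK substrates stand to the right (0.67 and 0.57), and the isolated points at the right in MEC2 and PCL12 are TLR9, which had at most 10 counts in any library.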

How the data were processed

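RNA of 18 samples (HG3, MEC2 and PCL12, stimulated or not, 3 of each) was sequenced as bulk RNA-seq. The deposited table holds raw counts per gene symbol, made by the authors without normalization; the submitters' processing notes name FastQC, MultiQC, Trimmomatic, STAR, featureCounts and hg38, and the annotation, the strand setting and the handling of duplicates are not given in the sources used here. The paper names a Qiagen kit and a stranded reverse protocol, and the labels a Promega kit and Lexogen QuantSeq. Totals of 20382943 to 67308932 counts set the counting error, and PCR copies may be among them.

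Genes with at least 10 counts over the libraries were fitted with edgeR 4.0.16 in R 4.3.3 (TMM, 6 group means, robust quasi-likelihood), with Benjamini-Hochberg adjustment over all 31872 genes. CPM values use TMM-scaled totals, and log2 ratios of pairs a prior count of 2. Alternatives were DESeq2 1.42.0, limma-voom 3.58.1, a block for the replicate number within each line (with edgeR and limma-voom), RLE scaling, library totals, filterByExpr, no filter, a fit of each line alone, PCL12 from replicate 1 alone and each library left out. Chosen after seeing the data were fits without the mitochondria-rich libraries or genes, and block fits without single pairs, without the pairs holding those libraries, or with PCL12 from replicate 1. The tests were checked on simulated data drawn without differences between replicate pairs. There, edgeR with the block made more calls in a line without changed genes than edgeR on the groups or limma-voom with and without the block. DESeq2 made more still.

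The series description puts a stimulated and an unstimulated sample in each replicate series, so replicate numbers pair samples within a line. After removing group means, same-numbered libraries correlated in HG3 (0.259, 0.212 and 0.480) and PCL12 (0.607, 0.494 and 0.515), and in MEC2 by 0.189, -0.0133 and 0.611, where CpG replicate 1 correlated best with unstimulated replicate 2 (0.449) and CpG replicate 2 with unstimulated replicate 1 (0.388). No replicate pair of a group agreed within sampling noise (chi-square per gene of at least 18.8).

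MEC2-type transcripts were followed in genes (immunoglobulins aside) that reached 20 CPM throughout MEC2 but no more than 10% of the mean MEC2 level in PCL12 replicate 1. How they came to be in the other PCL12 libraries was not tested. The 9 genes, the pathway lists and the markers were chosen with earlier results of these data known. A further pathway list is not reported here. All 9 genes are named. Listed pathway genes are named when their adjusted p was under 0.05 in a CpG contrast of either edgeR fit or when they were among the 3 smallest P values of the lists in a line, and NFKBIZ, which the study treats as a marker of TLR9 activation, and ZC3H12A as a gene it names beside it. Positions are from GENCODE 44 and promoter windows from RefSeq, and the motifs were chosen after the windows had been read.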

Additional observations from a re-analysis of the deposited data

How the results depend on the processing

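The series description pairs the samples by replicate number, which the correlations bear out in HG3 and PCL12 but not for replicates 1 and 2 of MEC2. With the replicate block the number of the 9 genes called after CpG went from 0 to 2 in MEC2 (edgeR) and from 0 to 1 averaged over the lines (edgeR and limma-voom), while it stayed at 0 in HG3 and PCL12 and for the differences between lines. Without the pairs that hold a mitochondria-rich library the block fit called 1 gene in MEC2, in PCL12 and averaged, and with PCL12 from replicate 1 alone 1 averaged. Block fits without 1 pair called 0 to 2 genes in MEC2, 0 in HG3 and PCL12, and 1 to 2 averaged. No filter gave 1 averaged gene, MAP3K8 (adjusted p = 0.0144). For unstimulated MEC2 against HG3 the count of 1 became 0 with library totals or no filter and 3 without the mitochondria-rich libraries, and 0 to 3 with 1 library left out. For PCL12 against HG3 the count of 1 became 2 with no filter, 0 from PCL12 replicate 1 alone and 3 without the mitochondria-rich libraries, and 0 to 2 with 1 library left out. For MEC2 against PCL12 the count of 0 became 2 with DESeq2, 1 with limma-voom, library totals or filterByExpr, 2 without the mitochondria-rich libraries and 0 to 1 with 1 library left out. Over all genes, the calls for MEC2 against HG3, PCL12 against HG3 and MEC2 against PCL12 were 3116, 3008 and 654 of 31872. They were 3150, 3121 and 663 of 31872 with library totals, and 3729, 3775 and 1353 of 42248 with no filter. Without the mitochondria-rich libraries they were 3022, 3115 and 1063 of 31239. For MEC2 against PCL12 they were 1411 of 20123 with DESeq2, 988 of 31872 with limma-voom and 747 of 20733 with filterByExpr. The causes were not tested.

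Of 2160 values of single genes under alternatives, 231 changed sign, the smallest P among them being 0.142, and 8 of these had a Log2FC above its SE in the 6-group fit of all libraries. They were IKBKB after CpG in MEC2 (-0.089 without the mitochondria-rich libraries, -0.053 with the block without their pairs, -0.061 with the block without MEC2 replicate 2, and -0.085 to 0.63 with 1 library left out), CHUK in unstimulated MEC2 against HG3 (-0.068 without the mitochondria-rich libraries and -0.048 to 0.78 with 1 library left out), and, with 1 library left out, MAP3K14 in MEC2 (-0.73 to 0.0027) and PCL12 (-0.63 to 0.097) against HG3. Over all genes, the numbers called after CpG in HG3, MEC2 and PCL12 were 1, 1 and 0 in the 6-group fit, 43, 106 and 15 with the block, 73, 177 and 187 with the block without the pairs that hold a mitochondria-rich library, 0, 8 and 3 with limma-voom and the block, 2, 3 and 1 with DESeq2, 0 in each with limma-voom or the fit of a line alone, and 47, 44 and 10 with no filter. With the block and 1 pair of the line left out, they ran from 38 to 107 in HG3, 55 to 117 in MEC2 and 6 to 43 in PCL12. Where a lone library was left in a group, its spread was taken from the other groups. With 3 libraries per group and no pairing, even log2 differences of MAP3K8 and IKBKE well above their SE of 0.28 to 0.33 were not called. In the 6-group fit these were 0.98 for MAP3K8 and 0.86 for IKBKE in MEC2.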

Other observations

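Over the 18 libraries, 13990 genes whose mean reached 1 CPM were compared with 3 members by Pearson's r of log2 CPM, as a description of likeness in which line, library depth and the libraries with MEC2-type transcripts are shared by all points. The levels most like those of MAP3K8 were of MFSD2A (r = 0.936), ABTB2 (0.898) and ZC3H12A (0.895). Those most like MAP3K14 were of CMIP (0.938), SPTBN1 (0.933) and SIK3 (0.927), and those most like IKBKE of DENND3 (0.917), ABCA9 (0.884) and TTC34 (0.881).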
